A study of Mus musculus with 4 samples.

Results

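Chaperone-mediated autophagy was described here through the messenger RNA of 10 of its core genes: Lamp2, Hspa8, Dnajb1, St13, Stip1, Hsp90aa1, Hsp90ab1, Eef1a1, Phlpp1 and Rictor. They were chosen by name, and every array probe whose RefSeq accession maps to one of these symbols was taken. All 10 genes were found among 21367 named genes, with 14 probes in all, and each probe was printed in 1 spot and lay well above background on all 4 arrays. Lamp2 and Eef1a1 had a pair of probes each, Hspa8 had 3, and the other genes had 1 each.

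In chaperone-mediated autophagy, the cytosolic chaperone HSC70, made by Hspa8, binds single proteins that carry a KFERQ-like motif and brings them to the lysosome. There the protein docks on LAMP-2A, a splice form of Lamp2, which gathers into a complex that lets the unfolded protein cross the membrane. Co-chaperones assist HSC70 in the cytosol, HSP90 stabilises LAMP-2A at the lysosome, and a set of regulators at the lysosomal membrane sets how long the complex lasts.

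The cells were vascular smooth muscle cells grown from the aortas of C57BL/6J mice, used between passages 12 and 16, either wild type (WT) or LAMP-2AKO (L2AKO), named for a knockout of the LAMP-2A receptor. The control groups (WT control, L2AKO control) spent 24 h in DMEM with 5% lipoprotein-deficient serum, and the LDL groups (WT LDL, L2AKO LDL) spent the same time with LDL at 150 µg/ml cholesterol and bovine lipoprotein lipase at 0.1 U/ml. Each group was 1 Agilent 1-colour array hybridised with RNA pooled in triplicate, so no difference below has a replicate error or a p-value. The cells came from 5 aortas, and the number of preparations per genotype was not given in the sources used here. The same holds for how the deletion was made, the age of the mice, and whether control cells received the lipase.

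Values are normalised log2 signals, that is log2 of the processed spot signal minus the 75th percentile of the same array, which was between 318.8 and 433.8 in signal units. The scanner software gave the member spots an error of 0.14 to 0.15 log2 units each, or at most 0.22 for a difference of 2 arrays. This error was the same, 0.1443, on every array for all members but Phlpp1 and Rictor. It thus hardly depended on the spot and cannot be taken as a spread measured on it. Spots printed several times on an array differed with a median SD of at most 0.054. Values that differ by less than 0.22 are below called not separated, which says nothing of whether the groups are alike. These errors are technical, and the spread between cultures was not measured. Across the WT control, WT LDL and L2AKO control arrays, the normalised signals of 8 spike-in controls ranged by 0.20 to 0.50 each. WT control was the highest of these arrays on every control, so the shifts had a direction. Values called separated thus exceed the software's error, but not always the shifts seen in these controls.

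The array of L2AKO cells with LDL was alone on its slide, and the other 3 shared one. Of 8 spike-in controls, 7 fell beyond the span of the first slide on it, and the 8 differed from the first slide's mean by -1.17 to 0.63, so slide and group cannot be told apart in any comparison that uses it. Of 10 smooth muscle markers, 6 to 8 were well above background on an array, whereas Myh11 and Lmod1, markers of contractile cells, were not well above background on any. The smooth muscle markers went both ways in L2AKO without LDL, with 3 of 6 measured at least 1.5-fold higher (Tagln 1.27, Cnn1 1.11, Myl9 0.80) and 2 lower (Acta2 -0.75, Smtn -0.995) and a median of 0.62, and with LDL 4 of 7 were higher and 2 lower with a median of 1.04. The summed signal of the smooth muscle markers, in multiples of the 75th percentile, was 256 and 232 in WT without and with LDL and 234 and 243 in L2AKO. In WT control this sum rests mainly on Acta2, which read 7.39. Fibroblast markers (5 to 6 of 6 above background) summed to 407 and 346 in WT and to 259 and 213 in L2AKO, and mesothelial or epithelial markers (5 to 6 of 6) to 60.7 and 54.7 in WT and to 17.4 and 19.8 in L2AKO. In WT control the fibroblast sum rests mainly on Dcn, which read 8.60 there and 6.92 in L2AKO control. Within the fibroblast list the genes also went both ways in L2AKO without LDL. Of 5 measured, 2 were at least 1.5-fold higher (Serpinf1 4.28, Pi16 4.14) and 3 lower (Dcn -1.69, Lum -1.03, Pdgfra -0.61), all named after their values were seen. Of 5 mesothelial or epithelial markers measured, 4 were lower and 1 higher in L2AKO without LDL, and 3 lower and 1 higher with LDL. The higher one was Upk3b (1.17 and 1.80), also named after its values were seen. Macrophage markers (3 of 5, with Ptprc and Adgre1 not above background on any array) summed to 30.7 and 27.0 in WT and to 30.2 and 48.0 in L2AKO without and with LDL, and endothelial markers (2 of 5, with Cdh5, Tek and Emcn not above background) to 4.31 to 5.56. The macrophage sum rests mainly on Itgam, which read 4.82 in WT control, beside 0.82 for Csf1r and -0.66 for Cd68. The part of these cell type differences in the results was not tested, and fewer cells of a type cannot be told apart from less RNA per cell.

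**Figure D1:**
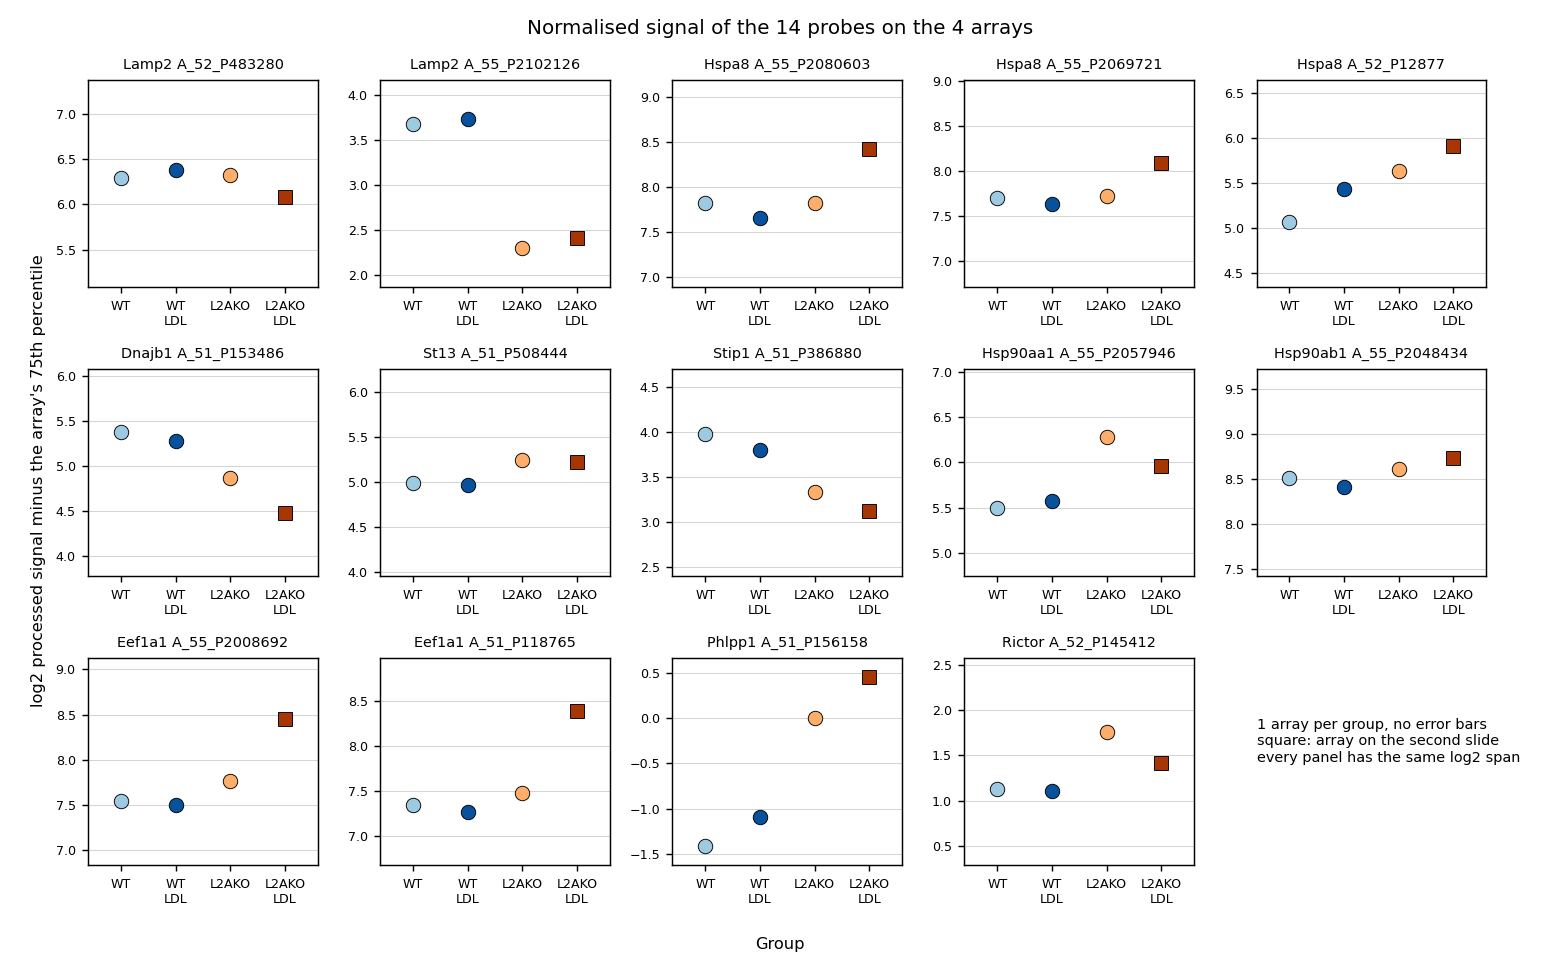
Normalised log2 signal (y axis) of each of the 14 probes in the 4 groups (x axis), 1 array per point and every panel with the same span, so the heights can be compared between panels but the levels cannot. The probe A_55_P2102126 of Lamp2 separates the genotypes, from 3.68 and 3.74 in WT to 2.30 and 2.41 in L2AKO, while the Eef1a1 probes stand apart on the L2AKO LDL array only.

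Lamp2, on chromosome X, was the targeted gene, and its 2 probes read differently. The probe A_55_P2102126, assigned to transcript NM_001017959, read 3.68 without and 3.74 with LDL in WT, and 2.30 without and 2.41 with LDL in L2AKO. Both L2AKO values lay under both WT values, and within each genotype the control and LDL values were not separated. The signal was 2.60-fold lower in L2AKO without LDL (log2 difference -1.38) and 2.50-fold lower with LDL (-1.32), and over 5 other ways of normalising the weakest values were -1.29 and -1.13. A signal well above background stayed on this probe in L2AKO, at 1917 units in control and 2313 in LDL, against 4077 and 4945 in WT.

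The other Lamp2 probe, A_52_P483280, assigned to transcript NM_010685, read 6.29 without and 6.38 with LDL in WT, and 6.33 without and 6.09 with LDL in L2AKO. The L2AKO LDL array was the lowest, but it lay only 0.20 under the next, WT control, and the other 3 arrays were not separated. The genotypes differed by 0.04 without LDL, and by -0.29 with LDL across slides. Set against each other within an array, which no scaling of the arrays can move, the genotype difference of the first probe minus that of this one was -1.42 without LDL and -1.03 with LDL. The probes thus differed unequally between the genotypes. Which part of the gene each probe covers, and which splice form each accession stands for, are not stated in these sources, and neither probe can therefore be read as a check of the deletion.

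The gene table lists 1 start for Lamp2, so the promoter window is shown once for both probes. It runs from 250 bases before the start to 50 after, on GRCm38.p6 at chrX:38456411-38456710 on the minus strand, from RefSeq, and capitals mark CCAAT and GGGCGG on either strand (the reverse reads ATTGG and CCGCCC).
Lamp2: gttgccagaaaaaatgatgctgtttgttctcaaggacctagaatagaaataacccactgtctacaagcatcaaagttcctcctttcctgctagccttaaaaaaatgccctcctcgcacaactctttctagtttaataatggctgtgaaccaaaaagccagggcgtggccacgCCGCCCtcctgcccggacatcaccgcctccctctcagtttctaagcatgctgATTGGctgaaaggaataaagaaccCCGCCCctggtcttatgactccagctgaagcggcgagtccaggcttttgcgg
The window held GGGCGG 2 times and CCAAT once, and it held no CACGTG, the core of the element bound by the lysosomal regulator TFEB. CACGTG was present in 7.15% of 32851 mouse promoter windows of the same length, CCAAT in 37.4% and GGGCGG in 35.7%.

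Hspa8 makes HSC70, the chaperone that selects the substrates, and its 3 probes, all assigned to NM_031165, did not move alike. The brightest, A_55_P2080603, read 7.83 without and 7.66 with LDL in WT, and 7.83 without and 8.42 with LDL in L2AKO. The second, A_55_P2069721, read 7.70, 7.63, 7.72 and 8.09 in the same order. On both, the 3 arrays of the first slide were not separated and the L2AKO LDL array was highest. The third, A_52_P12877, read 5.07 without and 5.43 with LDL in WT, and 5.63 without and 5.91 with LDL in L2AKO. On this dimmer probe both L2AKO arrays lay above both WT arrays, although the WT LDL and L2AKO control values were not separated.

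Between the genotypes without LDL, Hspa8 therefore differed by 0.00 on A_55_P2080603, by 0.02 on A_55_P2069721 and by 0.56 on A_52_P12877, the last 1.48-fold and just under the 1.5-fold line used for counting. In 4 of 5 other normalisations the third probe passed that line. With LDL the L2AKO values were higher by 0.76, 0.46 and 0.48, and all 3 stayed above 0 under the other normalisations, where the smallest values were 0.47, 0.16 and 0.48. Hspa8 has processed pseudogenes of near-identical sequence, and which of them each probe could bind was not tested.

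Among the co-chaperones, Dnajb1 and Stip1 were both lower in L2AKO, and St13 was not. Dnajb1, an HSP40-type protein that stimulates the ATPase of HSC70, read 5.38 without and 5.27 with LDL in WT, and 4.87 without and 4.48 with LDL in L2AKO. Both L2AKO arrays lay below both WT arrays, and of the pairs within a genotype only the L2AKO pair was separated. It differed by -0.51 between the genotypes without LDL (1.42-fold) and by -0.80 with LDL (1.74-fold).

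Stip1, also called Hop, which links HSC70 to HSP90, read 3.98 without and 3.80 with LDL in WT, and 3.34 without and 3.12 with LDL in L2AKO. The order of the 4 groups was the same as for Dnajb1, and again both L2AKO values lay under both WT values, while the WT arrays were not separated and the L2AKO arrays differed by -0.22. The genotypes differed by -0.64 without LDL (1.56-fold) and by -0.68 with LDL (1.60-fold), but 3 of 5 other normalisations left each of these differences under 1.5-fold, with values as small as -0.55 and -0.48. St13, also called Hip, which stabilises the substrate-bound form of HSC70, read 4.99 without and 4.97 with LDL in WT, and 5.24 without and 5.23 with LDL in L2AKO. It was 0.25 and 0.26 higher in L2AKO without and with LDL, far from the counting line.

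The promoter windows of the 2 co-chaperones that were lower together are shown to compare their motifs. Both come from RefSeq on GRCm38.p6, Dnajb1 at chr8:83607925-83608224 on the plus strand (the first of 2 windows listed for the gene) and Stip1 at chr19:7039977-7040276 on the minus strand, with capitals as for Lamp2.
Dnajb1: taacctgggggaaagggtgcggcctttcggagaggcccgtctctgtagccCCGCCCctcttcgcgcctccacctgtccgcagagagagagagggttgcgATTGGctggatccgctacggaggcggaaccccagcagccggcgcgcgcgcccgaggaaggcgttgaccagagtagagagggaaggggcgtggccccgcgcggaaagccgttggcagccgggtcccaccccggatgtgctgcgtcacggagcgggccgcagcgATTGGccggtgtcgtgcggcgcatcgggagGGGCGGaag
Stip1: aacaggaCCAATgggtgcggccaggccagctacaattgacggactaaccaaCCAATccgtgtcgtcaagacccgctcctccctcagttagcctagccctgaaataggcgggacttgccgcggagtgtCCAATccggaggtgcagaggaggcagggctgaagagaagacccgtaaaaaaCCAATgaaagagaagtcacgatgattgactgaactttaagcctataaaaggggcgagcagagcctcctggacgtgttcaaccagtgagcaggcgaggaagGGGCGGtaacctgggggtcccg
The Stip1 window held CCAAT 4 times, with a TATAAA from position -30 relative to the start, and the Dnajb1 window held CCAAT 2 times, all as ATTGG. The core of the heat shock element, searched on both strands as GAANNTTC and as TTCNNGAA, was in neither of them, nor in any of the 7 windows listed for 6 of the 10 genes. One of these cores was present in 15.1% of all windows, and a lack of these letters here says nothing of the factor.

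The HSP90 genes differed from each other. Hsp90aa1, the stress-inducible form, read 5.49 without and 5.57 with LDL in WT, and 6.28 without and 5.96 with LDL in L2AKO. Both L2AKO arrays lay above both WT arrays, with the control as the highest of the 4. It was 0.79 higher in L2AKO without LDL (1.73-fold, at least 0.79 in all 5 other normalisations) and 0.39 higher with LDL. Hsp90ab1, the constitutive form, read 8.51 without and 8.41 with LDL in WT, and 8.61 without and 8.73 with LDL in L2AKO. Each neighbour in this order was not separated from the next, and the difference between the genotypes was 0.10 without LDL. With LDL it was 0.32, but only 0.02 in the lowest of the other normalisations.

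Eef1a1, the elongation factor that also takes part in regulating the LAMP-2A complex at the lysosome, was high on the L2AKO LDL array on both probes. A_55_P2008692 read 7.54 without and 7.50 with LDL in WT, and 7.76 without and 8.45 with LDL in L2AKO. A_51_P118765 read 7.34, 7.27, 7.47 and 8.38 in that order. On both probes the L2AKO LDL array stood above the other 3, by at least 0.69 and 0.91. The differences between L2AKO LDL and WT LDL were 0.95 and 1.11, with 0.68 and 0.81 as the lowest values under other normalisations.

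By their median, bright probes in general were also higher on that array, and the part of this in the Eef1a1 and Hspa8 values was not tested. Over the 241 brightest probes, the top 1% of those above background on all arrays, the median difference of L2AKO LDL from WT LDL was 0.24 and from L2AKO control 0.13, with 7.88% of them at least 1.5-fold higher in the first comparison and 0 of 241 in the second. Over all probes these shares were 16.7% and 4.99%, so the brightest passed the line upwards less often. Downwards, 1 of the 241 passed in the first comparison and 0 in the second, against 20.0% and 5.42% of all probes. In the first comparison the bright probes past the line were thus 19 higher and 1 lower. Hsp90ab1 was the only member among these 241. Eef1a1 has many processed pseudogenes, and which of them the probes could bind was not tested. Of 6 other genes with an Eef symbol measured, not all of them elongation factors, 0 were 1.5-fold higher in L2AKO LDL than in WT LDL or L2AKO control. Over all genes 16.9% and 3.34% were. Eef1e1 was lower than in WT LDL (-0.70, under 1.5-fold in some other normalisations), and Eef2, named after its values were seen, was 0.18 and 0.17 higher.

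Phlpp1, the phosphatase that dephosphorylates AKT at the lysosome and so allows the LAMP-2A complex to form, had a genotype difference without LDL as large as that of Lamp2 and in the other direction, although with normexp, and in the table the authors deposited, it was the smaller of the pair. It read -1.41 without and -1.09 with LDL in WT, and 0.00 without and 0.46 with LDL in L2AKO. All 4 values were separated, and both L2AKO arrays lay above both WT arrays. It was 2.67-fold higher in L2AKO without LDL (1.42) and 2.92-fold higher with LDL (1.55), with 1.06 and 1.29 as the smallest values under the other normalisations. Its spots were the dimmest of the set, at 120 signal units in WT control and 595 in L2AKO LDL.

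Rictor is the subunit that defines mTORC2, the kinase complex that phosphorylates AKT at the lysosome and so restrains this form of autophagy. It read 1.12 without and 1.10 with LDL in WT, and 1.76 without and 1.42 with LDL in L2AKO. The WT arrays were not separated, and both L2AKO arrays lay above them. Rictor was 0.64 higher in L2AKO without LDL (1.56-fold) and 0.32 higher with LDL.

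These 2 genes act on AKT in opposite directions and were both higher in L2AKO, so their windows are shown side by side. They come from RefSeq on GRCm38.p6, Phlpp1 at chr1:106171619-106171918 and Rictor at chr15:6708131-6708430, both on the plus strand, with capitals as above.
Phlpp1: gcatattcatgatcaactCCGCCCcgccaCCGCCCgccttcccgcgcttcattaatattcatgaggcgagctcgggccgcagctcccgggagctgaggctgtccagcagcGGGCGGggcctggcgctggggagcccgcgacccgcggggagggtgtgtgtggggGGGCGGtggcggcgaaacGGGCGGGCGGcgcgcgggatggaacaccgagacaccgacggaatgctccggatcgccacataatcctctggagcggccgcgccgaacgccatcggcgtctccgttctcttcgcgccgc
Rictor: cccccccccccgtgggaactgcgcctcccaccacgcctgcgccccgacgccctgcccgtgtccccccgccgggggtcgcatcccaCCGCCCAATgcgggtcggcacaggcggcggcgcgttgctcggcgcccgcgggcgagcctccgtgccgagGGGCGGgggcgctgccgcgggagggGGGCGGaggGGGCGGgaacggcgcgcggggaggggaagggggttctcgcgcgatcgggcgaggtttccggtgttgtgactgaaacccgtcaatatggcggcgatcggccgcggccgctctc
GGGCGG was found 6 times in the Phlpp1 window and 4 times in the Rictor window, overlapping matches included, and all 7 windows of the set held it at least once. In the Rictor window 1 of the matches overlapped the only CCAAT. The matches are a description of these windows and not of bound sites.

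Set against all probes, the genotypes without LDL differed by at least 1.5-fold on 5 of the 14 probes. Higher in L2AKO were 3, those of Phlpp1, Hsp90aa1 and Rictor, against 14.0% of 24347 probes measured on both arrays, and lower were 2, those of Lamp2 (A_55_P2102126) and Stip1, against 14.9%. The median of the 14 differences was 0.12, beside -0.01 over all probes. With median scaling the split was 4 higher and 1 lower.

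With LDL 7 of the 14 probes differed by 1.5-fold between the genotypes, across slides. Higher were 4, 2 of Eef1a1 and 1 each of Phlpp1 and Hspa8 (A_55_P2080603), against 16.7% of 25602 probes, and lower were 3, of Lamp2, Dnajb1 and Stip1, against 20.0%. The median of the 14 was 0.36, beside -0.05 over all probes and 0.24 over the 241 brightest. Genes with several probes, Hspa8, Eef1a1 and Lamp2, count more than once in the median of the 14. Median scaling shifted the all-probe median by 0.20. With it the split was 7 higher and 2 lower, and higher probes made up 63.7% of all those past the line in place of 45.5%. After quantile normalisation the split was 3 and 3, and it was 3 and 2 both with normexp and in the table the authors deposited.

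**Figure D2:**
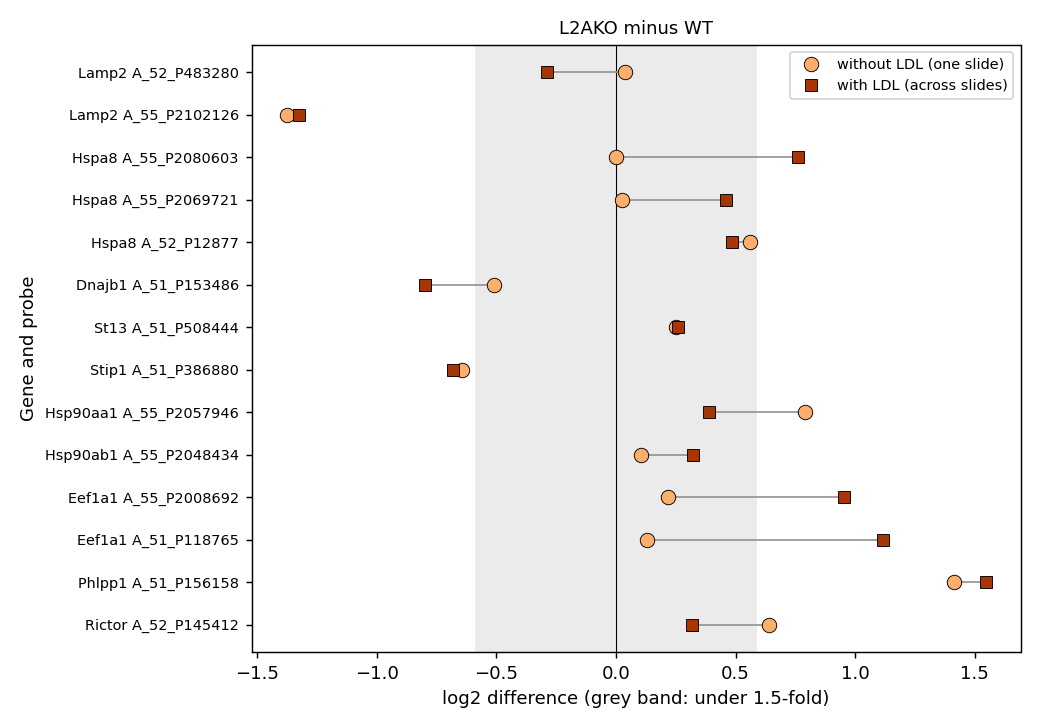
Log2 difference of L2AKO from WT (x axis) for each probe (y axis), without LDL as circles and with LDL as squares, 1 array per group, with the grey band covering differences under 1.5-fold. Lamp2 A_55_P2102126 lies at -1.38 and -1.32 and Phlpp1 at 1.42 and 1.55, while the Eef1a1 probes move from 0.22 and 0.13 to 0.95 and 1.11.

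**Figure D3:**
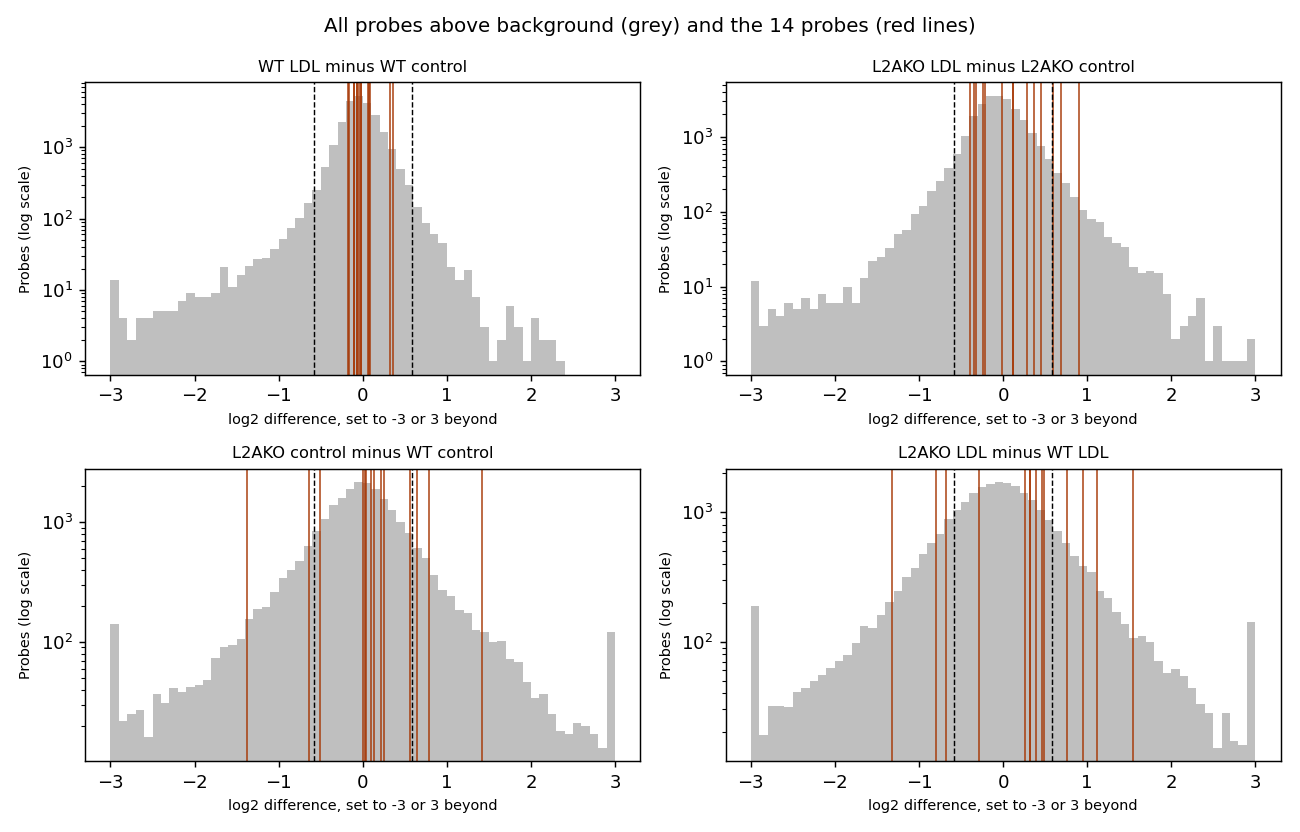
Number of probes (y axis, log scale) by log2 difference (x axis) in 4 comparisons, over all probes well above background in grey, with the 14 probes as red lines and 1.5-fold as dashed lines. In WT the 14 lines all lie between -0.18 and 0.36, and without LDL the genotypes span -1.38 to 1.42.

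Of the 14 probes 0 differed by 1.5-fold between WT with and without LDL, against 1.82% of 25287 probes higher and 2.59% lower, and the differences ran from -0.18 for Stip1 to 0.36 for Hspa8 (A_52_P12877). Phlpp1 was 0.32 higher, so that these Hspa8 and Phlpp1 probes alone passed the 0.22 of the scanner software's error. Both values were smaller than the largest range of a spike-in control over the first slide, 0.50. Every spike-in control was lower in WT LDL than in WT control, however, which is opposite in direction to both values. With 1 array a group no test could be run, and at these shares of all probes a count of 0 among 14 is close to the background. Higher probes made up 41.3% of all probes past the line, against 52.7% with the percentile taken over probes above background everywhere, 28.2% with normexp and 30.4% in the authors' deposited values.

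In L2AKO, where the LDL array lay on the second slide, 3 of the 14 probes were at least 1.5-fold higher with LDL, against 4.99% of 25550 probes, and 0 lower, against 5.42%. They were both probes of Eef1a1 (0.69 and 0.91) and Hspa8 A_55_P2080603 (0.59), and the other Hspa8 probes were 0.36 and 0.28 higher. After quantile normalisation and in the authors' deposited values only Eef1a1 A_51_P118765 stayed past the line, at 0.74 and 0.71. Dnajb1 (-0.39), Rictor (-0.34) and Hsp90aa1 (-0.33) had the lowest values, and Lamp2 stood at 0.12 and -0.24 on its probes. The share of higher probes among all those past the line was 47.9%, against 65.7% with median scaling, which shifted the all-probe median by 0.11, and 64.7% after normexp.

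The difference of these LDL responses, L2AKO minus WT, was at least 1.5-fold on the same 3 probes, with 0.98 and 0.74 for Eef1a1 and 0.76 for Hspa8. Over 24067 probes 6.84% were higher and 5.84% lower. Among the 241 brightest probes its median was 0.29, and 17 (7.05%) were past the line upwards and 0 downwards. For Lamp2 A_55_P2102126, Stip1, St13 and Hspa8 A_52_P12877 the responses of the lines differed by 0.08 or less. Median scaling moved the share of higher probes from 53.9% to 71.6%, and normexp to 67.1%. The LDL and genotype comparisons share arrays, so their values are given side by side and not correlated.

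**Figure D4:**
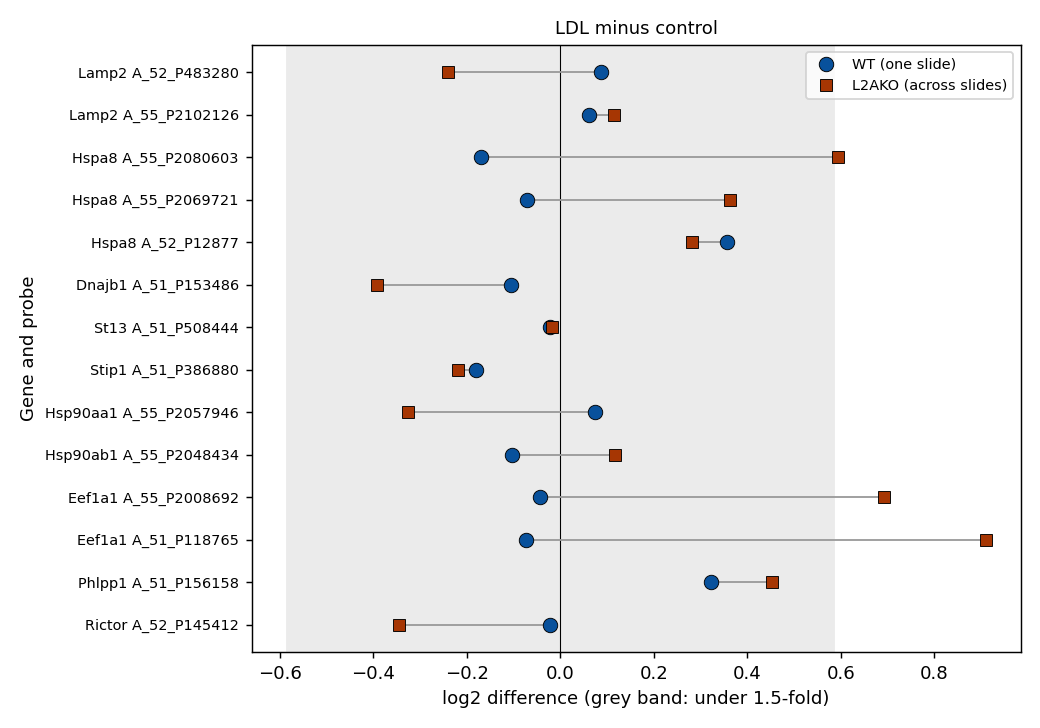
Log2 difference of LDL from control (x axis) for each probe (y axis), WT as circles and L2AKO as squares, 1 array per group, with the grey band covering differences under 1.5-fold. All WT circles lie within the band, and 3 L2AKO squares lie beyond it, of Eef1a1 at 0.69 and 0.91 and of Hspa8 at 0.59.

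**Figure D5:**
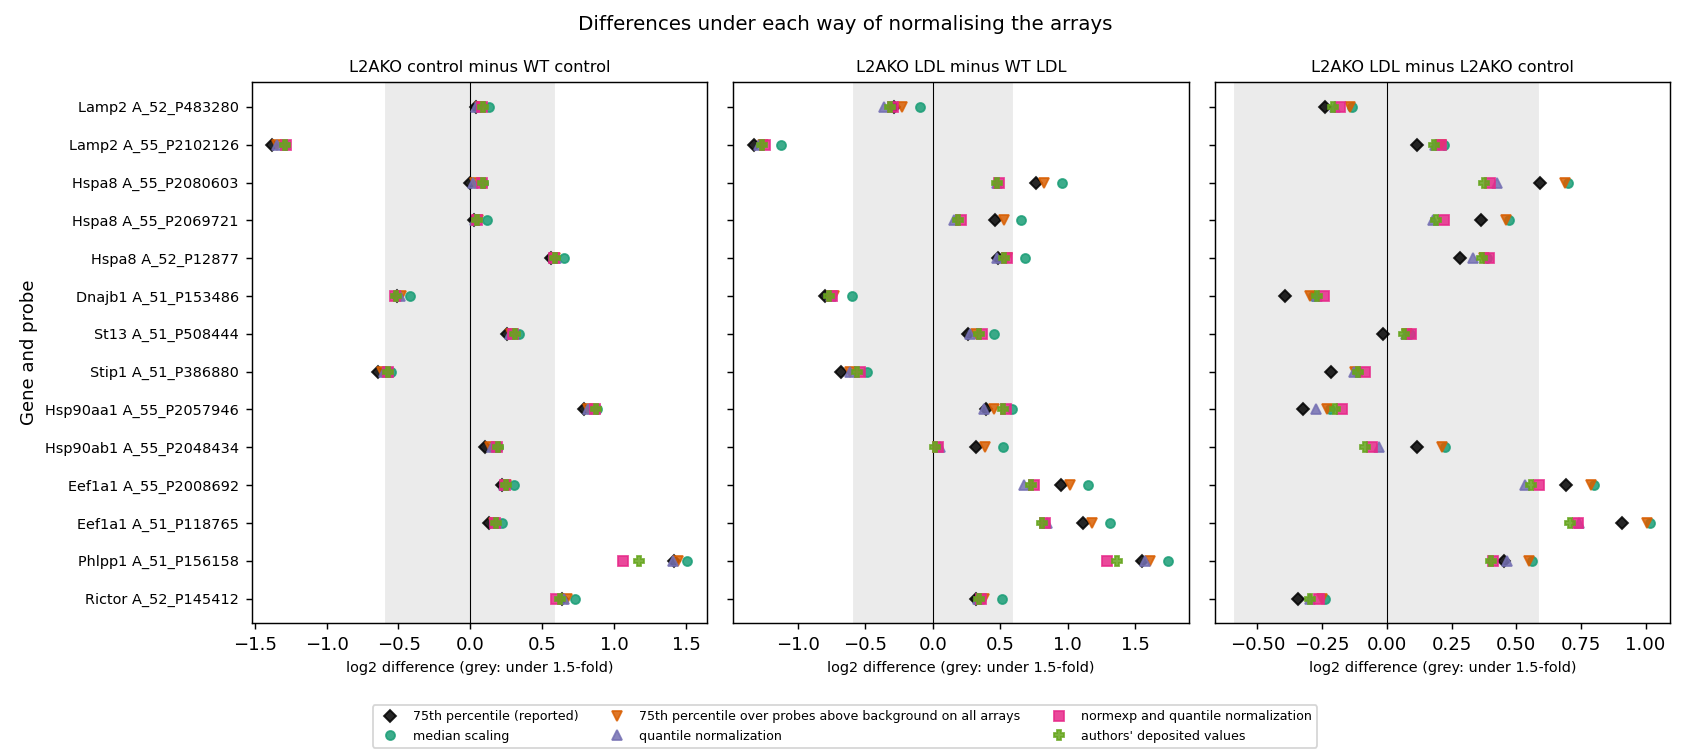
Log2 differences (x axis) of the 14 probes (y axis) in 3 comparisons under 6 ways of normalising the arrays, 1 marker each, with the grey band covering differences under 1.5-fold. Between the genotypes without LDL the markers of a probe span at most 0.44 (Phlpp1), whereas with LDL those of Eef1a1, Hsp90ab1 and the brighter Hspa8 probes span 0.47 to 0.50.

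Genes near the members in the pathway were taken from lists, each gene by its brightest probe. Of 14 genes of mTORC2, AKT and PHLPP, all measured, 4 were at least 1.5-fold higher in L2AKO without LDL and 0 lower, against 15.2% of 12598 genes higher and 16.6% lower. Prr5 (1.89) and Prr5l (1.20), which are subunits that bind Rictor, led them. Akt1 (0.66) and the mTOR inhibitor Deptor (1.01), the latter named after its value was seen, completed the 4. The list median was 0.21, beside -0.01 over all genes, and the count was 4 under every normalisation tried. With LDL the same 4 genes were higher and 2 lower, Sgk1 (-0.89), a kinase that mTORC2 activates, and Phlpp2 (-0.69), the paralogue of Phlpp1 (under 1.5-fold in some other normalisations), against 16.9% of 12942 genes higher and 20.5% lower.

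Of 17 other regulators of chaperone-mediated autophagy measured, Akt1 and Rac1 (0.69), which acts with PHLPP1 at the lysosome, were at least 1.5-fold higher in L2AKO without LDL and 0 were lower, against 15.2% of all genes higher and 16.6% lower. With LDL, against 16.9% higher and 20.5% lower, 2 were higher, Akt1 (0.86) and the retinoic acid receptor Rara (0.80), and 2 lower, Snx10 (-0.95) and Nfe2l2 (-0.60), the transcription factor NRF2, the last under 1.5-fold in some other normalisations. The next 3 genes were named after their values were seen. Cathepsin A (Ctsa), the protease that cleaves LAMP-2A, was 0.54 higher without LDL and 0.48 with it, under the counting line. Gfap, a partner of the receptor complex, did not rise well above background on the 4 arrays. Lamp1, the related lysosomal membrane protein, differed by -0.02 without LDL.

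Of 26 cytosolic chaperones outside the set, 3 were higher and 4 lower in L2AKO without LDL, against 15.2% of all genes higher and 16.6% lower. With LDL 4 were higher and 6 lower, against 16.9% and 20.5%, so the counts were near those of all genes in both comparisons. Hspb1, the small heat shock protein HSP27, was 1.85 and 1.59 higher and Fkbp5, an HSP90 co-chaperone, 1.63 and 1.74 higher. Hspa1a, the inducible HSP70 (-1.63 and -1.36), and Dnajb4 (-1.29 and -2.03), a relative of Dnajb1, were lowest. The array's Hspa1a probe could also bind Hspa1b, whose sequence is nearly the same and which had no named probe here. The list median was 0.09 without LDL and -0.04 with it, the latter above 0 under some of the other normalisations.

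On all 7 lists together, Mapt alone differed by 1.5-fold between WT with and without LDL (0.64), 1 of 14 reported substrates measured. Its probe was dim, at -3.53 without and -2.89 with LDL in WT, below every member probe. In L2AKO Mapt was 0.57 higher with LDL, under the line. Over all genes 1.25% of 12983 were higher and 2.46% lower, and the values of Mapt over the other normalisations went down to 0.23. In L2AKO none of the genes on these lists were 1.5-fold higher with LDL and 3 were lower, but slide and LDL cannot be told apart there. These were Nfe2l2 (-0.70), 1 of 17 regulators measured, and Nfkbia (-0.69) and Hif1a (-0.67), 2 of 13 substrates. Each was under the line in some other normalisations, and over all genes 3.34% of 13014 were higher and 4.55% lower. The difference of responses was past the line downwards for Nfe2l2 (-0.78), Dnajb4 (-0.74), Sgk1 (-0.65), Mef2d (-0.62) and Lrrk2 (-0.61) and upwards for none, against 4.78% of 12496 genes higher and 3.99% lower, and of these 5 Nfe2l2 alone passed in every normalisation. They were 1 of 17 regulators, 1 of 26 cytosolic chaperones, 1 of 14 genes of mTORC2, AKT and PHLPP, and 2 of 13 substrates.

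For member probes whose values ranged over at least 1 log2 unit, the 3 genes with the most similar pattern were found among 12495 genes, by the Euclidean distance between the 4 values after each probe's own mean was subtracted. Those nearest to Lamp2 A_55_P2102126 were Isyna1 (distance 0.06), Ppp1r3f (0.07) and Alg13 (0.07). Ppp1r3f and Alg13 lie on chromosome X like Lamp2, and Isyna1 lies on chromosome 8. The share of chromosome X among the genes compared was not taken. Those nearest to Phlpp1 were Zfp37 (0.12), Dnal1 (0.12) and Zfp995 (0.13), and those nearest to Eef1a1 A_51_P118765 were Arhgap26 (0.06), Slurp2 (0.06) and Sema4a (0.08). None of these lies on the chromosome of its member, which is 1 for Phlpp1 and 9 for Eef1a1. With 4 values a probe, such closeness describes these arrays only.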

How the data were processed

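Each deposited scanner file gave the intensity of 62976 spots on a linear scale, and its processed signal came from Feature Extraction (version 10.7.3.1), per the file headers. Linear intensities also fill the value table that the authors deposited, with column medians between 57.4 and 57.6 and 1 maximum in all columns; it followed the median spot signal in rank. RMA and oligo are named in the submitters' processing notes; how the table was scaled is unknown.

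Control spots and outlier spots were left out, and log2 values of a probe's spots were averaged, giving 55679 probes. The 75th percentile of each array was subtracted. RefSeq accessions without version named 28330 probes through the GRCm38.p6 gene table; the files name mm9, so no probe coordinates are given. A probe counted as measured if each array compared had a spot well above background, and 1.5-fold was the counting line. No test was possible with 1 array per group. List genes named were, unless said otherwise, up to the 2 highest and 2 lowest past 1.5-fold per list and comparison. Members and lists were chosen with earlier results of these data known. The counting step was tested on simulated data. Alternatives were 5 other normalisations (among them normexp on the median spot signal, the mean signal planned for it not being used here, with an offset of 50), 2 other filters and a 2-fold line. Computation used R 4.3.3, limma 3.58.1, Python 3.11.15, numpy 2.4.6, pandas 2.3.3 and matplotlib 3.10.9.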

Additional observations from a re-analysis of the deposited data

Results flagged for a closer look

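On 7 of the 14 probes the LDL response, at the 75th percentile scaling, went in opposite directions in WT and L2AKO, with 1 array per group, and these differences were not tested. All 7 WT responses were below 0.22, the scanner software's error of a difference, so no WT direction is separated from 0. The signs stayed opposite under all 5 other normalisations on 3 of the 7. These were the brightest Hspa8 probe, A_55_P2080603, with -0.17 in WT and 0.59 in L2AKO (difference of responses 0.76), Lamp2 A_52_P483280 with 0.09 and -0.24 (-0.33), and Hsp90aa1 with 0.07 and -0.33 (-0.40). On the other 4 the WT sign turned after quantile normalisation, with normexp and in the authors' deposited values. Their differences of responses were 0.44 for Hspa8 A_55_P2069721, 0.74 for Eef1a1 A_55_P2008692, 0.98 for Eef1a1 A_51_P118765 and 0.22 for Hsp90ab1. Both Eef1a1 probes and this Hspa8 probe then had the same direction in both genotypes, while for Hsp90ab1 both signs turned (0.07 in WT and -0.03 in L2AKO after quantile normalisation). Every L2AKO response uses the array on the second slide, and slide and LDL cannot be told apart there.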

How the results depend on the processing

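Every called difference of a member probe kept its direction in the 5 other normalisations: 5 of 5 between the genotypes without LDL, 7 of 7 with LDL, 3 of 3 for LDL in L2AKO and 3 of 3 for the difference of responses. Past 1.5-fold in all 5 were 4, 5, 1 and 1 of them in that order. The count for LDL in L2AKO was 1 after quantile normalisation and 1 in the authors' deposited values, against 3. The difference of responses kept 1 of its 3 probes past the line under each of quantile normalisation, normexp with quantile normalisation, and the authors' deposited values. At 2-fold the counts were 2 and 3 between the genotypes without and with LDL, 0 for LDL in L2AKO and 0 for the difference of responses. The count for LDL in WT was 0 under all 8 alternatives. Filters on dim probes changed no count, since all 14 probes were above background everywhere. Without a called difference the sign was less stable: in WT the LDL response had 1 sign in all normalisations on 8 of 14 probes. The cause of these shifts was not tested. No paired analysis was possible because each group has 1 array and no replicate numbers.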

Other observations

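Of 13 reported substrates of chaperone-mediated autophagy measured without LDL, Hif1a (1.08), the hypoxia factor, and Nfkbia (0.73), the inhibitor of NF-kappa-B, were at least 1.5-fold higher in L2AKO and 0 were lower, against 15.2% of all genes higher and 16.6% lower, with a list median of -0.07 (above 0 in some other normalisations). Of 14 measured with LDL, 0 were higher and 3 lower, among them the kinase gene Lrrk2 (-1.03), against 16.9% of all genes higher and 20.5% lower. The counts higher without LDL and lower with LDL were near those of all genes. Gapdh, a classical substrate named after its values were seen, differed by -0.07 without LDL and 0.34 with it. Among 12 organelle chaperones 1 was 1.5-fold higher without LDL, Dnajb9 (0.87), and 1 with LDL, Trap1 (0.63), beside the same shares of all genes, and over the other normalisations these counts reached 3 and 2. In the LAMP family Cd68, which is also one of the macrophage markers, was higher in L2AKO by 1.85 and 1.79. The summed macrophage markers were 30.7 and 27.0 in WT without and with LDL and 30.2 and 48.0 in L2AKO, and their part in the Cd68 values was not tested. That sum rests mainly on Itgam, which differed between the genotypes by -0.16 without LDL and 0.83 with it. Csf1r, the other marker above background, was 0.52 and 0.31 higher in L2AKO. Lamp3, named after its values were seen, differed by 0.03 and -0.33.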
